A study of Mus musculus with 12 samples.

Results

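Genes of the Notch pathway were followed through the fetal mouse cortex, cluster by cluster and embryo by embryo. The 10 genes were taken by name from the 23513 genes of the count tables, and all 10 were present: the ligands Dll1, Dll3 and Jag1, the receptors Notch1, Notch2 and Notch3, the DNA-binding factor Rbpj, and the target genes Hes1, Hes5 and Hey1. Cortical nuclei of C57BL/6J embryos at embryonic day 14 were profiled by droplet-based single nucleus RNA sequencing (snRNAseq), in which each captured RNA carries a unique molecular identifier (UMI) and is counted once. Dams had been injected intraperitoneally once a day with saline, or with ethanol (EtOH) in saline, from E8.5 to E13.5. In batch 1 were 2 saline embryos of dam S1 (S1-1, S1-2) and 2 EtOH embryos of dam E1 (E1-1, E1-2). In batch 2 were 3 saline embryos of dam S2 (S2-1, S2-2, S2-4) and 4 EtOH embryos of dam E2 (E2-1, E2-2, E2-3, E2-4), and a further saline embryo of the labels was not used here. Only 2 dams per treatment stood behind the embryos, and the tests below take littermates as independent.

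Notch receptors sit on the cell surface and bind ligands of the Delta and Jagged families on neighboring cells. Binding lets proteases release the intracellular part of the receptor, which enters the nucleus and joins Rbpj on DNA to switch on the Hes and Hey genes, repressors of the genes that drive neuronal differentiation. In the fetal cortex the pathway is known for keeping radial glial cells (RGCs), the stem cells that line the ventricle, undifferentiated, while intermediate progenitor cells (IPCs) and newborn neurons present the ligands.

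Genes carry symbols only in the tables, and the coordinates given here come from GENCODE M21 on GRCm38. The ligand genes lie on chromosome 17 from 15367354 to 15376872 (Dll1, minus strand), chromosome 7 from 28293553 to 28302238 (Dll3, minus strand) and chromosome 2 from 137081456 to 137116644 (Jag1, minus strand). The receptor genes lie on chromosome 2 from 26457903 to 26516663 (Notch1, minus strand), chromosome 3 from 98013527 to 98150361 (Notch2, plus strand) and chromosome 17 from 32120820 to 32166852 (Notch3, minus strand). Rbpj is the longest member and spans 191211 bases of chromosome 5 from 53466152 to 53657362 (plus strand). The target genes are short, with 3413 bases for Hes1 (chromosome 16 from 30064384 to 30067796, plus strand), 1449 bases for Hes5 (chromosome 4 from 154960923 to 154962371, plus strand) and 3898 bases for Hey1 (chromosome 3 from 8663359 to 8667256, minus strand). Antisense or other opposite-strand genes that are also listed in the tables overlap Dll1 (A930024N18Rik), Notch3 (Gm17276) and Rbpj (Gm10441 and Gm40304). Neither the counting strand nor the treatment of reads in introns is given in the sources used here, so counts of these 3 members could hold reads of the overlapping gene. Rbpj also has 2 annotated pseudogenes (Rbpj-ps1 and Rbpj-ps3), between which and Rbpj reads could have been split.

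Because Rbpj binds DNA at sequences with the core TGGGAA, these 6 letters were searched on both strands in the 250 bases before the start of each member in RefSeq's promoter set for GRCm38.p6, which held windows for 8 of the 10 members (not Hes1 and Hey1). Hes5 and Rbpj held the letters, against 21.6% of all 32851 promoter windows (7094 windows). Hes5 is shown since it is a target gene of the pathway and its window held 2 matches, whose first bases lay 226 bases (minus strand) and 82 bases (plus strand) before the start. The stretch below is the plus strand of chr4:154960682-154960861, and capitals mark the matches.
Hes5: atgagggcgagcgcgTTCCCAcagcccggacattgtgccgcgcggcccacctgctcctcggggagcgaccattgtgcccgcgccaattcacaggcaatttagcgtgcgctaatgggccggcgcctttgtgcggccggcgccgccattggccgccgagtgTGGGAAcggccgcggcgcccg
A match of these letters is a description of the sequence, and binding of Rbpj was not measured.

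Levels were expressed as CPM, the UMIs of a gene summed over the nuclei of 1 embryo in 1 of the authors' 25 clusters, scaled to the same total for every embryo and cluster. The 50550 nuclei (30349 saline, 20201 EtOH) held 14078316 to 83061737 UMIs per embryo, and every saline embryo (at least 44017566) held more UMIs in total than every EtOH embryo (at most 38034349). The median UMIs per nucleus lay between 8365 and 9051 in 4 saline embryos, but at 6325 in S2-4, within the range of the EtOH embryos (4071.5 to 6911). In edgeR fits over all genes and clusters, 1721 calls became 19059 without S2-4, so the calls of members are given with and without this library. Because S2-4 was singled out by this rise, all calls and adjusted p without it are descriptions and give no further support. This holds also for members that were called with it. Of the barcodes, 314 (0.6252%) occurred in more than 1 embryo, and doublets were neither called nor removed. Summed marker genes followed the class names of RGCs, IPCs, projection neurons (PN) and interneurons: the 8 RGC markers summed to 1595 to 3163 CPM in RGCs and at most 1006 CPM elsewhere, the 5 IPC markers to 1211 to 1505 CPM in IPCs and at most 429 CPM elsewhere, the 5 PN markers to 1946 to 2559 CPM in PN and at most 1484 CPM elsewhere, and the 6 interneuron markers to 1312 to 1745 CPM in interneurons and at most 1121 CPM elsewhere.

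Among the ligands, Dll1, the main Delta ligand of the fetal brain, was highest in non-mitotic IPC Cluster 6 with 48.1 ± 15 CPM (SD, n = 11 embryos), between 28.95 CPM in the lowest and 80.8 CPM in the highest embryo. Mitotic IPC Cluster 17 followed with 31.8 ± 14.2 CPM, and Cluster 6 was above Cluster 17 in 10 of 11 embryos. Late interneuron precursor Cluster 10 (25.2 ± 5.78 CPM), non-mitotic RGC Cluster 12 (24.6 ± 7.72 CPM) and interneuron precursor Cluster 3 (23.7 ± 5.93 CPM) came next and did not differ from their neighbors in the order beyond the spread. Dll1 was thus spread over progenitors of several kinds, with 6289 UMIs of which RGCs held 28.9%, IPCs 23.3%, interneurons 21.5% and PN 19.4%.

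Dll3, a Delta family protein that acts inside the cell and does not activate Notch from outside, was highest in Cluster 10 with 16.3 ± 4.74 CPM (SD, n = 11), followed by Cluster 6 with 12.9 ± 4.36 CPM. RGC Cluster 20 had 10.8 ± 8.31 CPM (n = 9), with 0 UMIs in its lowest embryo, and RGC Cluster 3 had 7.80 ± 3.10 CPM. Only 1780 UMIs of Dll3 were counted in all, and in the order of its 25 clusters a single pair of neighbors (Clusters 9 and 1) differed beyond the spread between embryos.

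Jag1, the Jagged ligand of the list, was highest in Cluster 3, an RGC cluster that the study named interneuron precursors, with 52.3 ± 8.44 CPM (SD, n = 11). PN Cluster 24 followed with 42.3 CPM but with an SD of 30.6 (n = 10), from 12.5 CPM in the lowest to 88.6 CPM in the highest embryo. Every further cluster had at most 16.1 CPM (Cluster 12), Cajal-Retzius Cluster 14 having 14.8 ± 5.98 CPM. No pair of neighbors in the order of Jag1 levels differed beyond its spread.

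The receptors were all highest in RGCs, which held 65.6% of the UMIs of Notch1, 75.9% of those of Notch2 and 75.2% of those of Notch3. These percentages describe the clusters and test nothing, since all 3 receptors are on the authors' marker lists of RGC clusters. Notch1 had 187 ± 24.2 CPM (SD, n = 11) in Cluster 3, followed by Cluster 12 with 168 ± 29.2 CPM and Cluster 2 (named RGC 1) with 136.5 ± 16.8 CPM, and Cluster 12 was above Cluster 2 in 10 of 11 embryos. Notch3 had nearly the same order, from 185.5 ± 29.7 CPM in Cluster 3 through Cluster 12 (161 ± 22.6 CPM) and Cluster 2 (142.5 ± 18.6 CPM) to Cluster 20 (134 ± 28.7 CPM, n = 9).

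Notch2 stood apart from the other receptors by its peak in cortical hem RGC Cluster 21, at the medial edge of the cortex. There it had 541 ± 59.5 CPM (SD, n = 10 embryos), between 450.4 and 648.9 CPM, against 309.5 ± 64.8 CPM in Cluster 12, and all 10 embryos had more in Cluster 21. In the same cluster Notch1 had 62.2 ± 19.1 CPM and Notch3 had 81.8 ± 18.6 CPM, each the lowest of its RGC clusters. In IPC Cluster 6 the receptors were at 67.7 CPM (Notch1), 34.4 CPM (Notch2) and 29.4 CPM (Notch3), and each had its lowest level in a neuronal cluster.

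Rbpj, the factor through which all 3 receptors act on DNA, was present in every cluster, and its highest level was in IPCs and not in RGCs. It had 336 ± 26.3 CPM (SD, n = 11) in Cluster 6, between 305.4 and 384.9 CPM. Clusters 12 and 17 followed with 267 ± 37.3 and 265 ± 43.6 CPM, and Cluster 17 was above Cluster 2 (221 ± 20.9 CPM) in 10 of 11 embryos. Cluster 6 was above Cluster 12 in all 11 embryos, by 69.1 ± 25.6 CPM. The lowest mean was still 66.5 ± 16.5 CPM (n = 7), in PN Cluster 25, and the 74131 UMIs of Rbpj were split between RGCs (28.1%), PN (26.8%), interneurons (23.3%) and IPCs (15.3%).

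The target genes Hes1 and Hes5, repressors that hold progenitors undifferentiated, were highest in the 5 RGC clusters, and Hes1 is the gene by which the study named its RGCs. Within that class they differed in where they peaked. Hes1 was highest in Cluster 2 with 99.4 ± 26.8 CPM (SD, n = 11), above Cluster 12 (69.4 ± 16.4 CPM) in 11 of 11 embryos, and lowest of the RGC clusters in Cluster 3 (47.0 ± 14.3 CPM). Hes5 was highest in Cluster 3 with 60.3 ± 14.0 CPM, followed by Cluster 20 with 49.4 ± 20.8 CPM, and these did not differ beyond their spread.

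Among IPCs, Hes1 was at 26.3 CPM in mitotic Cluster 17 and at 4.74 CPM in non-mitotic Cluster 6, the cluster with the most Dll1. Hey1, a repressor of the related Hey family, was low throughout, with 948 UMIs in all and at most 5.98 ± 3.62 CPM (Cluster 12). Cluster 2 followed with 5.66 ± 1.80 CPM, above Cluster 3 (3.62 ± 1.42 CPM) in all 11 embryos.

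**Figure D1:**
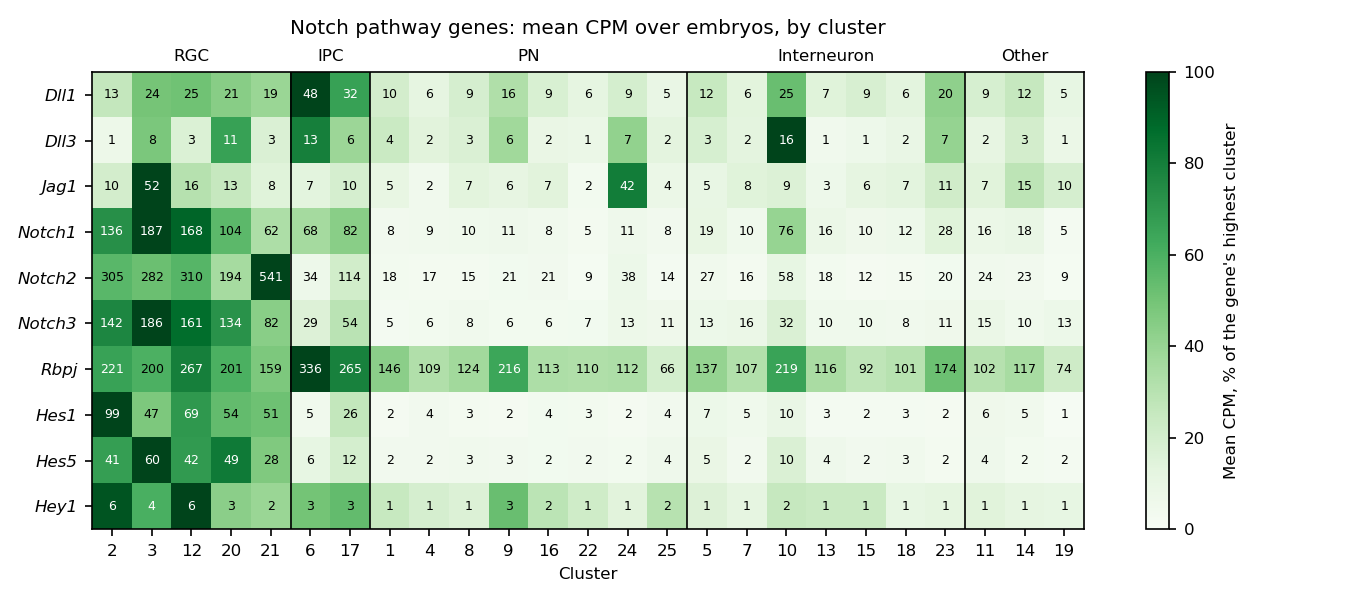
Mean CPM of each member (rows) in each of the 25 clusters (columns, grouped by major class), over embryos with at least 10 nuclei in the cluster. The numbers are CPM and the green shade is the percent of the gene's own highest cluster: receptors and Hes genes are dark over the RGC clusters (Notch2 at 541 CPM in Cluster 21), Rbpj and Dll1 are darkest in IPC Cluster 6, and Dll3 in Cluster 10.

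The share of nuclei with at least 1 UMI was compared between classes on nuclei thinned to 2000 UMIs, since median depth differed between classes (6477.5 UMIs in RGCs, 5939 in IPCs, 7630.5 in PN). Hes5 was found in 8.80 ± 1.91% of thinned RGC nuclei (SD, n = 11 embryos), 1.37 ± 0.849% of IPC nuclei and 0.469 ± 0.195% of PN nuclei. The share in PN was taken as a measure of background. This assumes that these neurons lack Hes5, which was not tested. With all UMIs the shares in RGC, IPC and PN nuclei were 23.1 ± 2.29%, 4.43 ± 1.34% and 2.02 ± 0.789%. Hes1 was found in 12.9 ± 3.33% of thinned RGC nuclei against 0.516 ± 0.289% of PN nuclei, and in 1.02 ± 0.453% of IPC nuclei (32.2%, 2.00% and 4.97% with all UMIs).

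Notch2 was the receptor found most often in RGCs, in 42.4 ± 5.63% of thinned nuclei, with 27.6 ± 3.32% for Notch1 and 24.6 ± 2.67% for Notch3. In IPCs the order differed, with Notch1 in 12.4 ± 2.51%, Notch2 in 7.87 ± 1.53% and Notch3 in 5.88 ± 1.60% of nuclei. Dll1 was found in 8.23 ± 2.08% of IPC nuclei and 3.92 ± 0.795% of RGC nuclei, and Rbpj in 46.6 ± 3.49% of IPC, 34.1 ± 2.42% of RGC and 23.2 ± 3.92% of PN nuclei. Hey1 was found in 0.840 ± 0.295% of RGC nuclei, so that most nuclei of every class showed none of it at this depth.

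**Figure D2:**
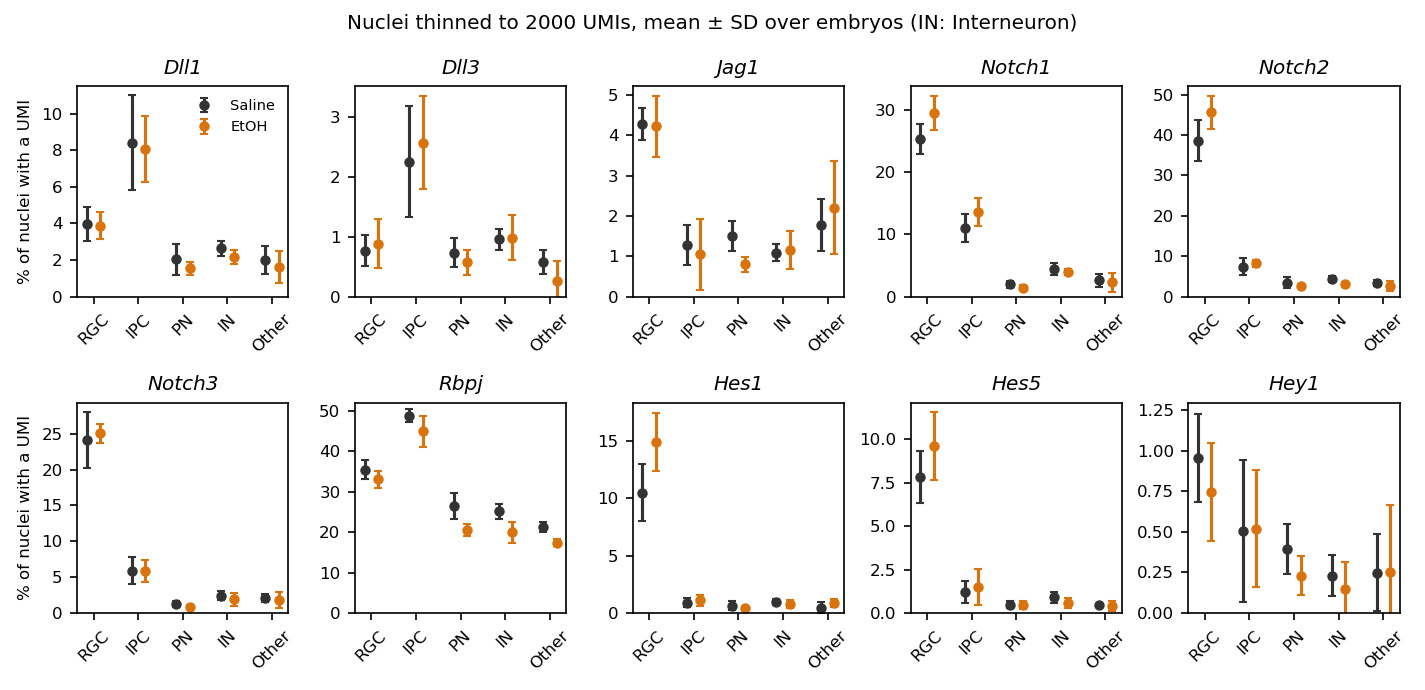
Percent of nuclei with at least 1 UMI of each member, in nuclei thinned to 2000 UMIs, for the 5 major classes (mean ± SD over 5 saline embryos in black and 6 EtOH embryos in orange). Each panel has its own axis from 0. RGCs lead for the receptors, Jag1 and the target genes, and IPCs for Dll1, Dll3 and Rbpj (46.6% of IPC nuclei over all embryos).

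Across the 25 clusters, log2(CPM + 1) of the 3 receptors and the 2 Hes genes rose and fell together, with Pearson's r from 0.88 (Notch1 and Hes1) to 0.96 (Notch3 and Hes5, and Hes1 and Hes5). Dll1 followed Rbpj most closely (r = 0.92) and Hes1 less (r = 0.54), and Dll3 and Hes1 had r = 0.19. These are descriptions over 25 clusters that share libraries and were built from the same genes. Each member was also set beside 11621 genes that reached 10 CPM in a cluster. The 3 genes with the most similar pattern were Zfp62, Csnk1a1 and Mfng for Dll1 (r = 0.94 for each), Mfng being a glycosyltransferase that modifies Notch receptors. For Dll3 they were Reps1, Akna and Rftn2 (r = 0.78 to 0.79), and for Jag1 Crls1 and Hdac3 led (r = 0.75 for each). For Notch1 they were Mcm6, Nufip2 and Pdlim1, for Notch2 Acsf2, Zfp36l1 and Ttyh1, and for Notch3 Tns3, 9430041J12Rik and Zranb3, with r = 0.965 to 0.983. For Rbpj they were Ubap2l, Med13 and Vps4b (r = 0.96 to 0.98), for Hes1 Prr5l, Lair1 and Plce1 (r = 0.98 for each), and for Hes5 Fam69c, 9430041J12Rik and D030047H15Rik (r = 0.97 to 0.98). Hey1 did not reach 10 CPM in any cluster and was not compared.

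Within clusters, presence of a ligand and of a target gene in the same nucleus was rare at 2000 UMIs. Pairs read were Dll1 with Hes1, Hes5, Notch1 and Dll3, and Dll3, Jag1, Notch1 and Hes1 each with Hes5. They were read in Clusters 2, 3, 6, 10, 12, 17 and 20, and other pairs of members were not read. Of the 45 combinations of a pair and a cluster with enough nuclei, a few with Dll1 are given, chosen after their values were seen and without a test. In Clusters 2 and 12 only saline embryos held enough nuclei with Dll1, so the values there describe that group alone. In Cluster 2, 76 nuclei with Dll1 were available in 5 embryos, and 6.54 ± 6.94% of them held Hes1, against 14.3 ± 2.72% of the 2681 nuclei without Dll1. The share was lower in nuclei with Dll1 in 5 of 5 embryos. In Cluster 12, 16.9 ± 2.77% of 54 nuclei with Dll1 held Hes5, against 7.41 ± 2.15% of nuclei without, and the share was higher with Dll1 in 4 of 4 embryos. In Clusters 3 and 2 the share with Hes5 differed by less than its spread, with 10.3 ± 5.21% of the nuclei with Dll1 and 11.9 ± 3.10% of those without in Cluster 3 (lower in 6 of 9 embryos), and in 5.87 ± 5.79% and 6.92 ± 1.30% in Cluster 2 (higher in 3 of 5). In Cluster 3, the share with Hes1 was 7.02 ± 6.52% with Dll1 (195 nuclei) and 7.88 ± 2.33% without, lower in 7 of 9 embryos and smaller than its spread. In Cluster 6, 17.5 ± 7.63% of 311 nuclei with Dll1 held Notch1, against 11.9 ± 2.00% of nuclei without, higher in 9 of 11 embryos, with a difference of 5.68 ± 6.81 percentage points that is smaller than its spread.

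The effect of EtOH was then asked for each member in each cluster, with edgeR's quasi-likelihood test over all genes of a cluster and calls made where the p adjusted by Benjamini-Hochberg was under 0.05 and the fold change below 0.8 or above the reciprocal of 0.8. Enough counts were present for 133 of the 250 pairs of a member and a cluster, and 11 pairs were called, 8 lower and 3 higher in EtOH embryos. Over all genes and clusters 0.792% of tests were called, 0.350% as lower and 0.442% as higher. Rbpj made up 7 of the 8 lower calls, and Notch3 the remaining one. Hes1 (2 calls) and Notch2 (1 call) were the higher ones. The median log2 fold change was -0.15 over the 133 tests. Over all genes tested it lay between -0.00702 and 0.0145 in each cluster. The scaling holds that median near 0, and genes of like level were not compared.

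These counts depended on single libraries and on the batch. With the batch as a block, 4 of the 11 calls remained and none was added, and the share over all genes was then 0.419%. Without S2-4 all 11 calls remained and 24 were made, while 8.78% of all tests passed. The 13 added calls were Rbpj, lower in Clusters 7, 10, 11, 13, 16, 17 and 19, Jag1, lower in Cluster 8, and Hes1 (Clusters 2 and 10), Notch2 (Clusters 2 and 12) and Notch1 (Cluster 6), all higher in EtOH embryos. Without S2-2 there were 4 calls, without E2-1 or E2-4 there were 2, and without E1-2, E2-2 or E2-3 there was 1. Without S1-1, S1-2 or S2-1 there were 0 calls by edgeR, with 34, 35 and 37 member tests at an unadjusted p under 0.05, against 37 in all 11 embryos. Calls over all genes fell with them, from 1721 to 523 without S2-2, to 128 to 385 without these EtOH embryos, and to 89 to 211 without S1-1, S1-2 or S2-1. The direction of the 11 calls turned in none of these fits.

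**Figure D3:**
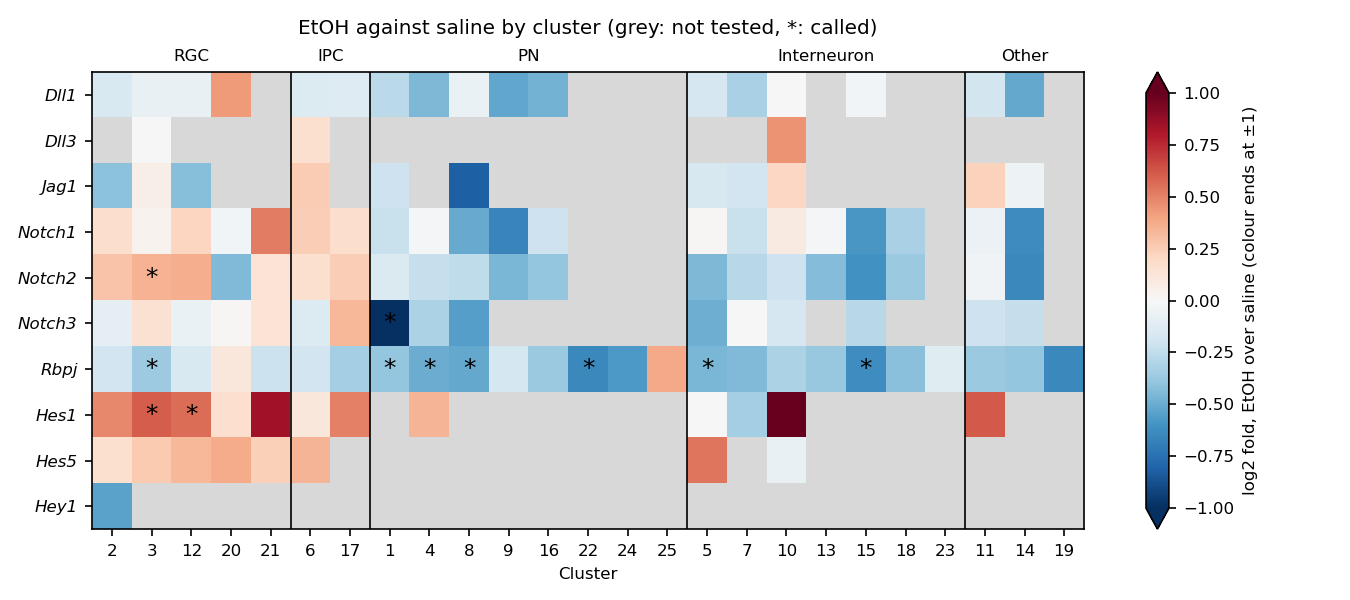
Log2 fold change, EtOH over saline, of each member (rows) in each cluster (columns) from edgeR, red where higher and blue where lower in EtOH embryos, with the colours ending at 1 and -1. Grey cells had too few counts to be tested and asterisks mark the 11 calls: the row of Rbpj is blue in 23 of 25 clusters with 7 asterisks, and Hes1 is red across the RGC clusters with asterisks in Clusters 3 and 12.

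Rbpj was lower in EtOH embryos in callosal PN Clusters 1 and 22, PN Clusters 4 and 8, interneuron Clusters 5 and 15, and RGC Cluster 3, and its log2 fold change was below 0 in 23 of 25 clusters with a median of -0.37. In Cluster 4, rostral subcortical PN, saline embryos had 128, 124, 147 and 138 CPM and S2-4 had 105 CPM, and EtOH embryos had 85.0 to 99.2 CPM with a median of 92.0. All saline embryos lay above all EtOH embryos there, and the log2 fold change was -0.49 ± 0.08 (SE; edgeR, adjusted p = 0.0383). In interneuron Cluster 15, saline embryos had 101, 107, 140.4, 114 and 101 CPM and EtOH embryos 69.6 to 86.5 CPM (median 73.2), again without overlap (log2 fold change -0.62 ± 0.12, adjusted p = 0.0217). In callosal PN Cluster 22, saline embryos had 129.5, 159, 145, 135 and 109 CPM and EtOH embryos 78.3 to 98.7 CPM (median 87.1), also without overlap (log2 fold change -0.64 ± 0.14, adjusted p = 0.0328).

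In the other called clusters S2-4 lay among the EtOH embryos. In callosal PN Cluster 1, saline embryos had 176, 170.5, 165, 173 and 141 CPM of Rbpj, the last being S2-4, and EtOH embryos 110 to 148 CPM with a median of 130.1. The log2 fold change was -0.39 ± 0.08 (edgeR, adjusted p = 0.0256). The same held for Cluster 5 (S2-4 at 135 CPM, other saline embryos 159 to 169.5 CPM, EtOH 105.5 to 142.5 CPM), Cluster 8 (S2-4 at 112 CPM, other saline 141 to 172 CPM, EtOH 89.1 to 116 CPM) and Cluster 3 (S2-4 at 191 CPM, other saline 212 to 241 CPM, EtOH 165 to 209 CPM), with log2 fold changes of -0.46 ± 0.09, -0.51 ± 0.10 and -0.36 ± 0.09 (adjusted p = 0.0281, 0.0401 and 0.0406). With the batch as a block, the calls in Clusters 1, 5 and 15 remained (adjusted p = 0.0316, 0.0324 and 0.0284), and those in Clusters 3, 4, 8 and 22 were lost (0.0553, 0.0536, 0.0520 and 0.0526). Within batches the ratio of mean CPM, EtOH over saline, was 0.737 in batch 1 and 0.820 in batch 2 in Cluster 1, 0.730 and 0.712 in Cluster 4, and 0.627 and 0.671 in Cluster 22. Without S2-4 the log2 fold changes in the 7 clusters were -0.43 to -0.73 (adjusted p = 5.93e-06 to 0.00200). Without S2-2 the calls in Clusters 1, 3, 4 and 8 were lost (adjusted p = 0.0520, 0.0523, 0.0764 and 0.0715), and those in Clusters 5, 15 and 22 remained. Cluster 15 remained in 7 of the 11 fits without 1 embryo, the most of the 7 clusters.

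No call was made for Rbpj in the RGC Clusters 2, 12, 20 and 21, where its log2 fold changes were -0.19 ± 0.08, -0.16 ± 0.11, 0.11 ± 0.17 and -0.21 ± 0.17, nor in IPC Clusters 6 (-0.19 ± 0.07) and 17 (-0.34 ± 0.10), of which Cluster 17 was called without S2-4 (-0.41, adjusted p = 0.00749). Among the tests made, the groups did not overlap for Rbpj in 3 of 25 clusters (4, 15 and 22) and for Notch3 in 1 of 16 (Cluster 1), while 2.14% of all tests had groups that did not overlap.

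Counts summed over the clusters of a major class gave 5 member calls in 45 tests, where 3.75% of all tests were called, and all 5 were lower in EtOH embryos. In PN, 6.53% of all genes were called. Rbpj was called in PN, in interneurons and in the class of other neurons, and in these 3 classes all saline embryos lay above all EtOH embryos, while over all genes and classes 2.67% of tests had groups that did not overlap. Without S1-1, S1-2, S2-1 or E2-2 there were 0 class calls by edgeR, with 16, 15, 11 and 13 member tests at an unadjusted p under 0.05 against 12 in all 11 embryos. Over all genes and classes these 4 fits made 1, 0, 0 and 0 calls, against 2528 in all 11 embryos, so nothing about the members is read from them. Without E2-3 there was 1 call (116 over all genes), without S2-2, E1-2, E2-1 or E2-4 there were 2 (230 to 843 calls over all genes), and without S2-4 there were 7, where 16.9% of all class tests passed. Class sums also move with the share of each cluster in a class. The 5 IPC markers are those of the class with the most Rbpj. In PN they summed to 293 to 421 CPM in saline and 266.5 to 313 CPM in EtOH embryos. Interneurons had 331 to 428 and 299 to 372 CPM, and other neurons 324 to 429 and 256 to 370 CPM. Among the IPC markers Elavl4 held the most UMIs (151125, then Eomes with 20108). Its median level over clusters was 286.8 CPM, against 3.81 to 12.6 CPM for the other IPC markers. The IPC marker sums in these neurons are thus not read as RNA of IPCs. Their part in the Rbpj values was not tested.

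In PN, Rbpj was at 155.5, 160.3, 161 and 154 CPM in the first 4 saline embryos and at 124 CPM in S2-4, the closest to the EtOH embryos, which had 109 to 123 CPM with a median of 115. The log2 fold change was -0.45 ± 0.08 (edgeR, adjusted p = 0.0235), -0.44 with nuclei thinned to 2000 UMIs (adjusted p = 0.0267) and -0.52 without S2-4 (adjusted p = 1.01e-06). It was called in 6 of the 11 fits without 1 embryo, with adjusted p up to 0.0688. In interneurons, saline embryos had 159, 150.5, 164, 139 and 142 CPM and EtOH embryos 101 to 131 CPM (median 118), with a log2 fold change of -0.45 ± 0.08 (adjusted p = 0.0197). In the class of other neurons, saline embryos had 126, 104, 124, 125 and 105 CPM and EtOH embryos 80.3 to 99.0 CPM (median 91.4; log2 fold change -0.41 ± 0.08, adjusted p = 0.0441, and 0.0560 with the batch as a block). Without S2-4 it was -0.50 in interneurons and -0.47 in other neurons (adjusted p = 0.000205 and 0.000536).

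In RGCs and IPCs the groups overlapped. Saline embryos had 243.5, 229, 237, 231 and 196 CPM in RGCs against 188 to 217 CPM in EtOH embryos (median 206), with a log2 fold change of -0.25 ± 0.07 (95% interval -0.39 to -0.10, adjusted p = 0.0581), and -0.32 without S2-4 (adjusted p = 0.00114). In IPCs it was -0.24 ± 0.07 (95% interval -0.38 to -0.10, adjusted p = 0.0716). Neither class was called, and both fold changes were above 0.8. The 6 EtOH libraries and S2-4, with the least Rbpj in PN, were also those with fewer UMIs per nucleus (medians of 4071.5 to 6911, against 8365 to 9051 in the other 4), and the part of depth in these values was not tested. On nuclei thinned to 2000 UMIs, the calls of Rbpj in PN and interneurons (adjusted p = 0.0329) remained and that in other neurons was lost (adjusted p = 0.158). Of the 7 calls in clusters, that in Cluster 5 remained there (log2 fold change -0.53, adjusted p = 0.0163), those in Clusters 1, 3, 4, 8 and 15 were lost (-0.36 to -0.58, adjusted p = 0.0707 to 0.424), and Cluster 22 had too few counts.

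**Figure D4:**
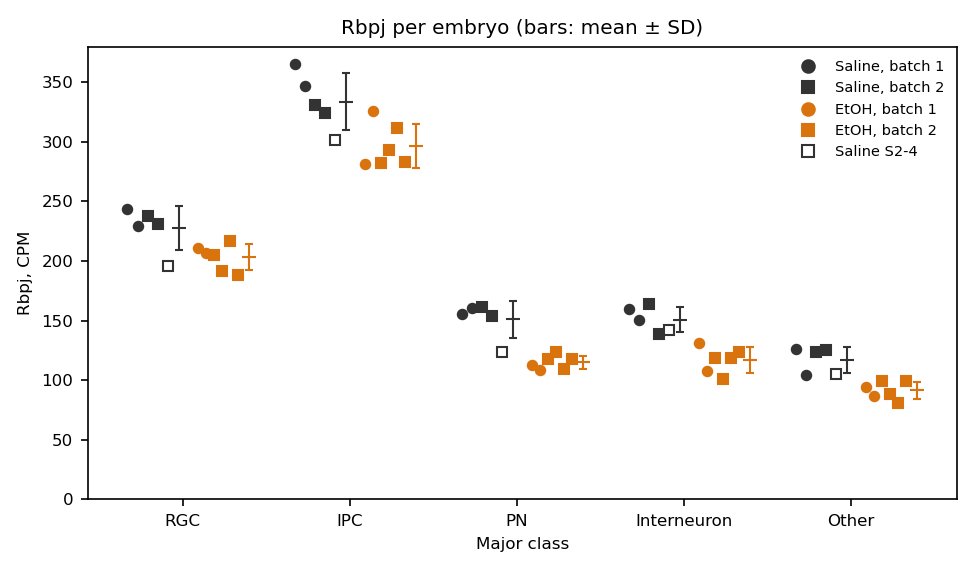
CPM of Rbpj in each embryo by major class, saline in black and EtOH in orange, circles for batch 1, squares for batch 2 and an open square for S2-4, with mean ± SD bars. In PN, interneurons and other neurons all saline points lie above all EtOH points, with S2-4 at 124 CPM just above the highest EtOH embryo (123 CPM) in PN, and in RGCs and IPCs the groups overlap.

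Hes1 was called higher in EtOH embryos in 2 of the 5 RGC clusters and in no other cluster. Its log2 fold change was above 0 in 10 of 12 clusters tested, within and outside RGCs, with a median of 0.49. In Cluster 12, non-mitotic RGCs, saline embryos had 49.7, 55.0, 46.0, 64.7 and 57.5 CPM and EtOH embryos 64.0 to 89.2 CPM with a median of 84.1. Only E1-1, the lowest EtOH embryo, lay within the saline range, and the log2 fold change was 0.56 ± 0.12 (SE; edgeR, adjusted p = 0.0419). In Cluster 3, saline embryos had 27.3, 28.8, 38.9, 37.1 and 47.5 CPM and EtOH embryos 35.9 to 67.4 CPM (median 58.5), with overlap, and the log2 fold change was 0.60 ± 0.15 (adjusted p = 0.0456). Both calls were lost with the batch as a block (adjusted p = 0.0604 and 0.0553), and without S2-4 both were called (adjusted p = 0.00645 and 0.00176). With nuclei thinned to 2000 UMIs the log2 fold changes were 0.60 and 0.53 and neither was called (adjusted p = 0.0915 and 0.205), and in the 11 fits without 1 embryo the calls were made in 3 and 2. Within batches, mean Hes1 in EtOH embryos was 1.38 (batch 1) and 1.54 (batch 2) times that of saline embryos in Cluster 12, and 1.73 and 1.46 times in Cluster 3.

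In Cluster 2, with the most Hes1, the log2 fold change was 0.48 ± 0.14 (adjusted p = 0.0800, and 0.0447 without S2-4), with 63.4, 81.2, 74.0, 92.5 and 88.5 CPM in saline and 73.7 to 146 CPM in EtOH embryos. In Cluster 21 it was 0.84 ± 0.30 (adjusted p = 0.230) and in Cluster 20 it was 0.17 ± 0.21 (adjusted p = 0.857). In the RGC class as a whole, saline embryos had 46.2, 54.7, 47.6, 74.0 and 69.5 CPM of Hes1 and EtOH embryos 62.6 to 113 CPM (median 87.5). The log2 fold change of 0.51 ± 0.15 (95% interval 0.21 to 0.81) was not called (edgeR, adjusted p = 0.0610), and 3.79% of all genes were called in RGCs in all 11 embryos. Without S2-4 it was called (0.55, adjusted p = 0.0318), where 16.9% of all class tests passed. Summed levels of the 8 RGC markers in the same class were 1595 to 2827 CPM in saline and 2220 to 3163 CPM in EtOH embryos. The 5 microglia markers had higher but overlapping ranges in EtOH embryos, at 14.4 to 40.6 CPM in saline and 38.7 to 48.4 CPM in EtOH RGCs, 8.97 to 21.3 and 18.5 to 27.9 CPM in PN, and 13.7 to 29.2 and 26.3 to 36.2 CPM in interneurons. Most UMIs of the microglia markers were of P2ry12 (5220) and Cx3cr1 (5052), against 319 of Csf1r, 228 of Ly86 and 73 of Aif1. P2ry12 was highest in striatal Cluster 11 (76.3 CPM), so the microglia sums are not read as RNA of microglia. The part of the RGC and microglia markers in the Hes1 values, and in those of the other members, was not tested.

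Notch2 was higher in Cluster 3 of EtOH embryos, with 231, 220.4, 215, 252 and 283 CPM in saline (S2-4 the highest) and 261 to 367 CPM in EtOH embryos (median 313). The groups overlapped by S2-4 alone, and the log2 fold change was 0.35 ± 0.09 (edgeR, adjusted p = 0.0475, and 0.0649 with the batch as a block). With nuclei thinned to 2000 UMIs it was 0.49 (adjusted p = 0.0442), and without S2-4 it was 0.39 (adjusted p = 0.00366). In Clusters 2 and 12 the log2 fold changes were 0.29 ± 0.08 (adjusted p = 0.0683) and 0.36 ± 0.12 (adjusted p = 0.1203), both called without S2-4 (adjusted p = 0.00606 and 0.0133), in Cluster 20 -0.44 ± 0.22 (adjusted p = 0.525), and in Cluster 21, where Notch2 peaked, 0.14 ± 0.12 (adjusted p = 0.699).

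The other receptors and Hes5 were not called in any RGC cluster. In the RGC class the log2 fold changes were 0.12 ± 0.08 for Notch1 (95% interval -0.03 to 0.27), -0.01 ± 0.10 for Notch3 (-0.20 to 0.19) and 0.20 ± 0.12 for Hes5 (-0.04 to 0.44). Hes5 had 39.2, 38.2, 44.7, 35.6 and 48.6 CPM in saline and 38.2 to 64.6 CPM in EtOH RGCs (median 48.9), so the groups overlapped. For Hey1 in the RGC class it was -0.36 ± 0.24 (-0.83 to 0.11).

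**Figure D5:**
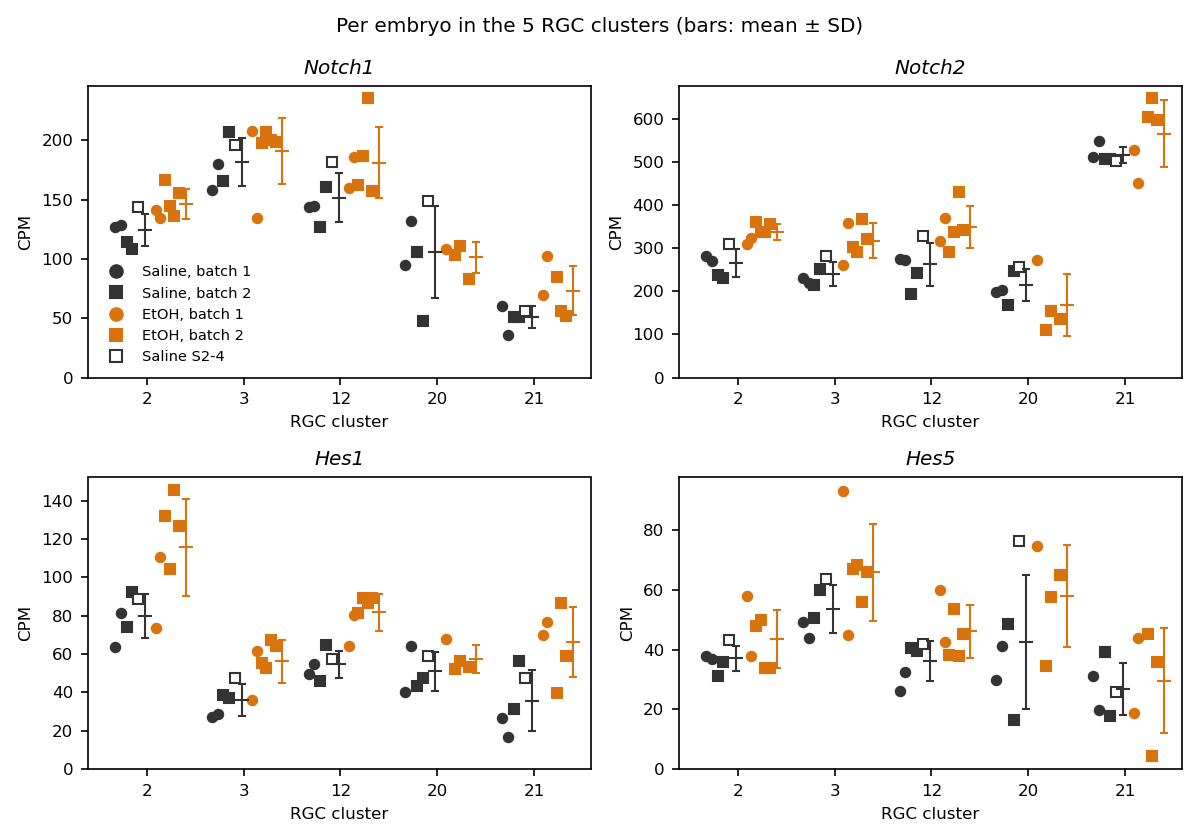
CPM of Notch1, Notch2, Hes1 and Hes5 in each embryo for the 5 RGC clusters, saline in black and EtOH in orange, circles for batch 1, squares for batch 2 and an open square for S2-4, with mean ± SD bars; embryos with fewer than 10 nuclei in a cluster are left out. Hes1 of EtOH embryos lies high in Clusters 3 and 12 (median 58.5 and 84.1 CPM), Notch2 in Cluster 3, and Notch1 and Hes5 overlap between groups in each cluster.

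In the PN class, where the receptors and Hes genes were low, the log2 fold change of all 10 members was below 0. Their median was -0.42 against 0.01 over all genes, which the scaling holds near 0, and genes of like level were not compared. Notch3, Hey1 and Rbpj were called. For 5 of the others the batches differed in direction. In batch 1 the mean CPM of EtOH embryos was above that of saline embryos for Notch1, Notch2, Dll1, Dll3 and Hes1 (ratios of 1.08 to 1.33), and in batch 2 it was below for these 5 (0.592 to 0.797). Jag1 and Hes5 were below in both. Notch3 in callosal PN Cluster 1 was at 5.70, 5.23, 5.92, 13.5 and 6.22 CPM in saline and 1.78 to 4.59 CPM in EtOH embryos (median 2.90), without overlap. The log2 fold change was -1.36 ± 0.33 (edgeR, adjusted p = 0.0349, and 0.0374 with the batch as a block), with EtOH over saline ratios of 0.785 in batch 1 and 0.275 in batch 2, and -1.06 without S2-2, the highest saline embryo (adjusted p = 0.0679), and -1.43 without S2-4 (adjusted p = 0.00396). Over the PN class, Notch3 was at 7.53, 6.80, 9.46, 11.6 and 6.35 CPM in saline and 4.601 to 6.52 CPM in EtOH embryos (log2 fold change -0.65 ± 0.16, adjusted p = 0.0327), with S2-4 inside the EtOH range. Its mean over all embryos was 6.74 CPM in PN against 153.5 CPM in RGCs. The part of background in the Notch3 values of PN was not tested. Hey1 in PN was at 2.07, 1.47, 1.62, 3.07 and 1.43 CPM in saline and 0.708 to 1.52 CPM in EtOH embryos (median 0.930, log2 fold change -0.96 ± 0.27, adjusted p = 0.0413). A UMI of Hey1 was found in 0.305 ± 0.155% of thinned PN nuclei. Its level in PN lies below that of Hes5, but Hey1 was also far lower in RGCs (4.66 ± 1.34 against 46.0 ± 9.12 CPM). The level of Hes5 in PN is therefore no measure of background for Hey1, and the part of background in the Hey1 values was not tested. Without S2-4 the adjusted p was 0.00130 for Notch3 and 0.00622 for Hey1 in PN (edgeR), and without S1-1, S1-2, S2-1 or E2-2 neither was called. Losses were not confined to these fits. Without E2-3 there was 1 class call in all, and without S2-2, E1-2, E2-1 or E2-4 there were 2, those of Rbpj included. With nuclei thinned to 2000 UMIs, Notch3 in PN was not called (log2 fold change -0.61, adjusted p = 0.1903), and Notch3 in Cluster 1 and Hey1 in PN had too few counts. The RGC markers summed to 520 to 897 CPM in saline and 750 to 1006 CPM in EtOH PN, the 4 cell cycle markers to 48.4 to 91.0 and 28.0 to 55.1 CPM, and the 6 interneuron markers to 51.8 to 124 and 25.4 to 61.5 CPM. Among the RGC markers Ptprz1 held the most UMIs (299848, then Slc1a3 with 67155), and its second highest cluster was PN Cluster 16 (1237 CPM). The RGC marker sums in PN are thus not read as RNA of RGCs. The part of these lists and of the IPC markers given above in the values of members in PN was not tested.

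None of the 3 ligands was called in any cluster or class. The strongest unadjusted results were Jag1 in PN Cluster 8, at 8.03, 11.7, 7.88, 12.6 and 6.90 CPM in saline and 2.74 to 6.91 CPM in EtOH embryos (log2 fold change -0.82 ± 0.25, adjusted p = 0.0782), and Jag1 in the PN class (-0.64 ± 0.22, adjusted p = 0.0642). Without S2-4 both were called (adjusted p = 0.0130 and 0.00236). For Dll1, the log2 fold change was below 0 in 15 of 17 clusters tested, with a median of -0.15, and 0 of these tests reached an unadjusted p under 0.05 by edgeR. The direction turned between batches, with EtOH over saline ratios of 1.67 in batch 1 and 0.690 in batch 2 in Cluster 6, and of 1.59 and 0.723 in the IPC class. In the 5 classes it was below 0 as well, and 1 test reached an unadjusted p under 0.05, that in PN (-0.41 ± 0.18, edgeR, adjusted p = 0.123). The log2 fold change was -0.13 ± 0.23 in IPCs (95% interval -0.59 to 0.33), the class with the most Dll1, and -0.10 ± 0.14 in RGCs (-0.37 to 0.17). Dll3 had enough counts in 3 clusters, with 0.45 ± 0.21 in Cluster 10 (adjusted p = 0.304). In Cluster 20 Dll3 had too few counts for the test (49 UMIs), with 5.13 ± 2.98 CPM in saline (SD, n = 5) and 17.8 ± 7.26 CPM in EtOH embryos (n = 4). The share of thinned nuclei with a UMI was 1.58 ± 2.16% and 3.18 ± 1.17% (exact permutation p = 0.230).

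Whether the effect of EtOH differed between classes was tested on the difference of log2(CPM + 0.5) between RGCs and another class in the same embryo (two-sided exact permutation test, 462 splits, 10 members and 3 classes, chosen after the values above were seen). For Notch3 the effect was 0.07 in RGCs and -0.56 in PN, a difference of 0.63 (exact permutation p = 0.0108, 0.00952 within batches), for Notch2 it was 0.30 and -0.23 (difference 0.53, p = 0.0152), and for Rbpj -0.16 and -0.39 (difference 0.23, p = 0.0152). Between RGCs and interneurons, Notch2 differed by 0.63 (exact permutation p = 0.0195) and Rbpj by 0.21 (p = 0.0260). Hes5 and Hes1 differed by 0.62 and 0.65 between RGCs and PN (exact permutation p = 0.00649 and 0.0606), but their levels in PN, 2.55 ± 0.845 and 2.97 ± 1.15 CPM, are those of the neurons taken above as a measure of background, so no effect of EtOH in PN is read from either. Notch3 in PN was also low beside RGCs (6.74 ± 2.12 against 153.5 ± 19.8 CPM), as was Notch2 (17.6 ± 4.05 against 304 ± 45.1 CPM). The part of background in their PN values was not tested, so no effect in PN is read from these differences either. None of the 30 differences passed 0.05 after Benjamini-Hochberg adjustment, with 6 at an unadjusted p under 0.05, and between RGCs and IPCs no difference did. The smallest p that 462 splits allow is 0.00216, so no single difference could have passed alone among 30. The lack of a pass is therefore not read as a lack of effect.

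The share of nuclei with a UMI, thinned to 2000 UMIs, was compared between treatments in 246 tests of a member and a cluster. None passed an adjusted p of 0.05 (two-sided exact permutation test over embryos, with 0.00216 as the smallest p that 462 splits allow), and 21 were at an unadjusted p under 0.05, 5 higher and 16 lower in EtOH embryos. At that smallest p no test could have passed alone among 246, so the lack of a pass is not read as a lack of effect. Rbpj gave the smallest, with 26.6 ± 2.29% of Cluster 5 nuclei in saline (n = 5) and 19.6 ± 1.97% in EtOH embryos (n = 6, exact permutation p = 0.00216). Notch2 was found in 33.1 ± 3.13% and 43.0 ± 5.22% of Cluster 3 nuclei (exact permutation p = 0.00649), and Hes1 in 9.99 ± 1.98% and 14.0 ± 2.54% of Cluster 12 nuclei (exact permutation p = 0.0195). Without thinning, 11 tests passed and 79 of the 81 at an unadjusted p under 0.05 were lower in EtOH embryos, the group with fewer UMIs per nucleus.

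The rest of the pathway was read from a list of 45 further genes, of which 43 are in the tables and 39 had enough counts in at least 1 cluster. In 678 tests of these genes in clusters, 1 was called higher and 1 lower, both in migrating interneuron Cluster 5, with a median log2 fold change of -0.0003. Over all genes 0.792% of tests in clusters were called, and in Cluster 5 itself 2.01%. Numb, an adaptor that holds Notch in check, was at 127, 129 and 141 CPM as lowest, median and highest saline values and 90.8 to 126 CPM in EtOH embryos (median 100.4), without overlap (log2 fold change -0.38 ± 0.08, edgeR, adjusted p = 0.0281). Snw1, a splicing protein that also binds Rbpj complexes, was at 20.5 to 32.6 CPM (median 23.8) in saline and 32.6 to 46.5 CPM (median 37.8) in EtOH embryos (log2 fold change 0.55 ± 0.13, adjusted p = 0.0407). Both calls remained with the batch as a block. Without S2-4, 43 calls were made in 682 tests (against 8.78% of all tests), without S2-2 or E1-1 there was 1, and without any other embryo there were 0 by edgeR, with 76 to 87 tests at an unadjusted p under 0.05 in these fits against 99 in all 11 embryos. DESeq2 gave 10 calls and limma with the dam as a random block 11. Shares over all genes are not given here for either fit, so these counts are not read as results about the pathway.

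Over the major classes, 3 of 177 tests were called, against 3.75% of all tests. Dtx3, a member of the Deltex family, was called higher in RGCs (log2 fold change 0.34 ± 0.09, adjusted p = 0.0441), Snw1 higher in interneurons (0.33 ± 0.09, adjusted p = 0.0444) and Numb lower in the class of other neurons (-0.33 ± 0.08, adjusted p = 0.0487). All 3 were lost with the batch as a block (adjusted p = 0.0526, 0.0534 and 0.0608). Of the 11 fits without 1 embryo, Dtx3 and Numb were called in 1 (without S2-4) and Snw1 in 2 (without S2-4 or E1-1). Among genes that modify or process the receptors, Mfng was highest in IPC Cluster 6 with 127 CPM and Lfng in RGC Cluster 20 with 24.7 CPM, and neither was called.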

How the data were processed

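The authors demultiplexed and aligned reads with Cell Ranger (version not given in the sources used here; mm10), filtered nuclei and genes and clustered nuclei with Seurat, with Harmony correction for batch and dam, and deposited 1 table of raw UMI counts per embryo and cluster (275 tables). Cluster numbers, names and major classes are theirs. The members and gene lists were chosen with earlier results of these data known. The rule for named genes took all members, every member and cluster test called, every further pathway gene called, and the 3 genes most like each member across clusters (1 of them is not reported here); those named from class sums, Mfng and Lfng were added after their values were seen.

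Counts were summed per embryo and cluster (9 pairs with fewer than 10 nuclei left out) or class, without weighting, and expressed as CPM. EtOH and saline were compared with edgeR 4.0.16 (glmQLFit, robust, TMM, filterByExpr) in R 4.3.3 in each cluster with at least 2 embryos per group, and Benjamini-Hochberg adjustment ran over all genes tested. Alternatives were DESeq2 1.42.0, limma 3.58.1 (voom, dam as a random block), other scaling and filters, batch as a block, sums per dam, thinning, and each embryo left out. Both edgeR and the permutation test were also run on simulated data. These held no likeness between littermates, and their outcomes are not given here. SEs were derived from the log2 fold change and its F statistic, and 95% intervals from the SE. Shares and class differences used exact permutation tests in Python 3.11.15. Neighbors in an order of levels differed beyond their spread where the mean paired difference over embryos exceeded its SD. Deviations from group means over 8941 genes correlated with a median r of -0.005 between a saline and an EtOH embryo of the same batch and 0.05 of different batches; the labels give the batch. Littermates differed by more than sampling noise, with a chi-square per gene of 4.03 to 11.3 within dams S1, E1 and E2. Within saline dam S2 it was 45.0 to 82.8, with 57.1 between S2-1 and S2-2. Depth ran from 14078316 to 83061737 UMIs per embryo, so small clusters are the least precise. Nuclei thinned to 2000 UMIs leave out shallower nuclei. Means of CPM carry SDs between embryos.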

Additional observations from a re-analysis of the deposited data

Results flagged for a closer look

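In 112 groups of 5 or 6 embryos, 6 had 1 embryo far from the rest by Dixon's test, and chance alone would mark about 1 group in 20. S2-4 stood apart for Rbpj in PN (124 CPM, other saline embryos 154 to 161 CPM) and for Notch1 in interneurons (36.4 CPM, others 18.1 to 22.6 CPM). S2-2 stood apart for Notch3 in Cluster 1 (13.5 CPM, others 5.23 to 6.22 CPM) and for Notch2 in PN (27.8 CPM, others 15.9 to 18.5 CPM), and S2-1 for Dll1 in RGCs (26.9 CPM, others 15.7 to 18.02 CPM). E1-1 stood apart for Hes1 in Cluster 12 (64.0 CPM, other EtOH embryos 80.3 to 89.2 CPM), and without it the log2 fold change of Hes1 there was 0.61. The causes were not tested.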

How the results depend on the processing

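Of the 16 member calls in clusters and classes, none turned direction in 296 fits under alternatives, 135 of which passed the call rule and 161 did not. The 11 cluster calls numbered 19 with no filter on low counts, 4 with the batch as a replicate block, 3 with counts summed per dam and 2 with nuclei thinned to 2000 UMIs (of which 10, 4, 2 and 2 were among the 11), and 0 to 24 with each embryo left out. The 5 class calls numbered 2 with counts summed per dam, 3 with thinned nuclei and 4 with the batch as a replicate block (of which 1, 2 and 4 were among the 5), and 0 to 7 with each embryo left out. With counts summed per dam, 13 of the 16 calls were lost, and those of Rbpj in Clusters 3 and 15 and in interneurons remained (edgeR, adjusted p = 0.0489, 0.0375 and 0.0210). By limma with the dam as a random block, 14 of the 16 calls remained and 2 were lost. The 2 calls among further pathway genes numbered 10 by DESeq2, 11 by limma with the dam as a random block, 23 with no filter, 0 with counts summed per dam (edgeR, 73 tests at an unadjusted p under 0.05), 2 with the block, and 0 to 43 with each embryo left out. Shares over all genes are not given here for DESeq2, limma, no filter, sums per dam or thinned nuclei. The counts of calls in those fits, for members and further pathway genes, are thus not read as results about these genes. Shares of nuclei gave 11 tests past the threshold without thinning and 0 at other depths of thinning. With labels exchanged within batch (batch as replicate block) and with each embryo left out there were 0 too, but few splits are then possible, so these say nothing about stability. The RLE scaling gave counts within 1.5 times of those reported, as did at least 30 nuclei per embryo and cluster. The causes were not tested, except that fewer members could be tested on thinned nuclei (53 against 133 in clusters).

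Depth limits Hey1 and Dll3 most, which had enough counts in 1 and 3 clusters. Littermates share a dam, which is taken up only by the sums per dam and the limma fit.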
